A study of Glycine max with 102 samples.

Results

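Leaf transcripts of exotic soybean introductions (PI lines) were compared with those of elite lines, both parents of soyNAM, a mapping population made by crossing many lines to 1 shared parent. Libraries were selected on the measured level of LHY2b, a gene of the circadian clock, and kept where it reached 60 FPKM (fragments scaled by transcript length and by mapped fragments), a limit meant to set aside leaves in another phase of the day. This left 21 of the 102 libraries of the series, 7 of 8 PI libraries and 14 of 18 elite libraries. All came from leaves of plants 18 days old at stage V2, with 1 library per accession and no treatment. The PI accessions are plant introductions, seed stocks collected abroad and used as donors of diversity. The elite parents of the series are breeding lines and cultivars such as Prohio, Magellan, Maverick and Skylla, with the shared parent IA3023 among them. The column named Parent, taken from general knowledge to be IA3023, was left out by the limit. The class of the other libraries rests on the public family number in the column name and not on the labels. Those columns, kept or left out, thus cannot be matched to a cultivar by name. Each accession is 1 library, so p-values for class differences weigh them by how far libraries of 1 class lie apart. P-values for slopes on LHY2b rest on the elite libraries alone and test no class difference.

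In plants LHY encodes a MYB repressor that peaks around dawn and holds down evening genes such as GIGANTEA, TOC1 and the evening complex of ELF3 and LUX. In soybean the clock, the phytochrome A loci E3 and E4 and the legume repressor E1 act on the florigen genes FT2a and FT5a, whose proteins move from the leaf to the shoot tip and start flowering there. Much of the adaptation of soybean to latitude runs through these loci, and introductions and elite lines are known to carry different alleles at several of them.

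The limit removed libraries with very low LHY2b but did not bring the classes to the same level. LHY2b (Glyma.03G261800) ranged from 127 to 203 FPKM with a median of 152 in PI libraries, and from 189 to 326 FPKM with a median of 260 in elite libraries. All 7 PI libraries lay under the elite median, 5 of them under the lowest elite library. These values chose the libraries, so no test of LHY2b is given, though the gene stays in the counts of genes tested and called below. The libraries nearest to the limit inside it were NAM50 and NAM64 among PI lines, at 126.7 and 150.6 FPKM, and NAM22 and NAM09 among elite lines, at 189 and 215 FPKM. Outside it lay the PI library NAM48 at 46.1 FPKM and the elite libraries NAM11 at 49.7, NAM06 at 36.4, NAM10 at 0.239 and Parent at 0.196 FPKM. The phrase matched clock state is therefore not borne out, and the libraries are called here by the limit that kept them.

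The other dawn genes followed the same order. LHY1a (Glyma.16G017400) had a lowest, median and highest level of 268, 321.5 and 373.5 FPKM in PI libraries, against 364, 461 and 576 FPKM in elite libraries, and 6 of 7 PI libraries lay below every elite library. LHY2a (Glyma.19G260900) stood at 54.5, 72.3 and 94.0 FPKM in PI libraries, against 76.7, 114 and 155 FPKM in elite libraries. LHY1b (Glyma.07G048500) stood at 74.0, 112 and 169 FPKM in PI libraries, against 111, 194 and 320.5 FPKM in elite libraries. The log2 fold changes of PI over elite libraries were -0.52 (SE 0.088) for LHY1a, -0.65 (SE 0.129) for LHY2a and -0.65 (SE 0.193) for LHY1b, with limma adjusted p of 0.00103, 0.00288 and 0.025. LHY1b lost its call without NAM42 (-0.57, adjusted p = 0.0665) or NAM50 (-0.54, adjusted p = 0.0706). Without NAM42, NAM46 and NAM50 LHY1a stood at -0.38, LHY2a at -0.49 and LHY1b at -0.35, with limma adjusted p of 0.0611, 0.0971 and 0.401. LHY copies are close in sequence and can share reads with LHY2b, so these tests are not independent of the rule that kept the libraries.

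**Figure D1:**
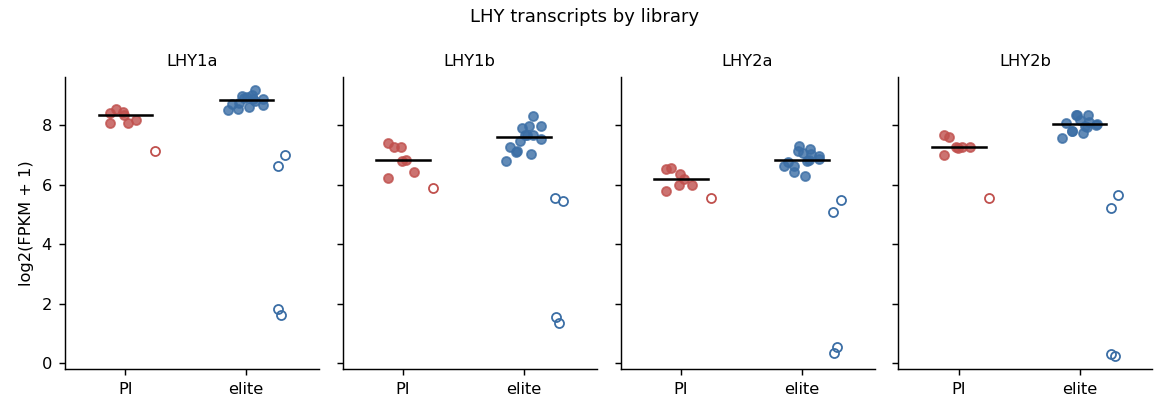
Levels of the LHY genes in each PI library (left in each panel) and each elite library (right), as log2(FPKM + 1). Filled points are kept libraries, open points those left out for LHY2b under 60 FPKM, and bars are medians of kept libraries; in all panels the PI median lies below the elite median.

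The kept libraries showed no difference in composition beyond their spread. PI libraries had 28050 ± 290 genes at 1 FPKM or more and elite libraries 27900 ± 269 (SD, n = 7 and 14; exact permutation test, 2-sided, adjusted p = 0.388). The 50 highest genes held 21.4% ± 1.16 of all FPKM in PI libraries and 21.7% ± 1.38 in elite libraries (exact permutation adjusted p = 0.597), and the summed FPKM also did not differ beyond the spread (exact permutation adjusted p = 0.388). The tissue label was borne out, since the 6 Rubisco activase and small subunit genes summed to between 27700 and 38160 FPKM in PI libraries and between 24280 and 40930 FPKM in elite libraries. The 4 leghemoglobin genes of nodules summed to at most 0.887 FPKM in PI and 3.22 FPKM in elite libraries, and the 7 seed storage and seed protein genes to at most 0.717 and 1.14 FPKM. FPKM keeps no read counts, so depth is unknown and no counting interval is given.

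Across the transcriptome, PI libraries differed from elite libraries in many genes by small amounts. Of 28385 genes whose mean over the kept libraries reached 1 FPKM, limma with Benjamini-Hochberg adjustment called 4986 at an adjusted p under 0.05, which is 17.6%. Of these 2445 were higher in PI libraries, 8.61% of genes tested, and 2541 lower, 8.95%. The median size of a called change was 0.33 on the log2(FPKM + 1) scale, a scale that understates changes of low genes, against 0.14 over all genes tested, and only 41 called genes were higher and 73 lower by 2-fold or more. In 111 genes every PI library lay above every elite library, 0.391% of those tested, and in 83 genes every PI library lay below, 0.292%. Of these genes without overlap 8 and 5 differed by 2-fold or more.

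The count was smaller with LHY2b as a covariate, without the limit on it, and in a range of it shared by both classes. Each of these fits also differed in its precision or its libraries. A limit of 100 FPKM kept the same libraries and so gave the same 4986 calls. With log2 LHY2b as a covariate beside the class, limma called 390 genes, 1.37% of those tested, of which 277 (0.976%) were higher and 113 (0.398%) lower in PI libraries. Of the 4986 genes called without it, 132 were called with it in the same direction, and 891 had the opposite sign. The median standard error of a fold change was 0.152 with the covariate and 0.0926 without it, since class and LHY2b overlap little. Within the 14 elite libraries alone, 2233 genes had a called slope on log2 LHY2b, 7.87% of those tested, a count that includes LHY2b itself. Without the limit on LHY2b, with all 8 PI and 18 elite libraries, 239 of 29202 genes tested were called. In the 2 PI and 4 elite libraries that share a range of LHY2b, NAM40 and NAM41 at 202.7 and 193.3 FPKM and NAM09, NAM14, NAM18 and NAM22 at 189 to 223 FPKM, 3 were called by limma, with 3777 at an unadjusted p under 0.05. Class and LHY2b level cannot be told apart in these libraries beyond those values.

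The PI libraries were not alike. The first principal component of the 21 libraries held 18.1% of the variance, and NAM42, NAM46 and NAM50 lay at 49.7, 54.2 and 46.8 on it. The other 4 PI libraries lay between 6.35 and 14.8. The elite range was -42.1 to 19.4, but its upper end was NAM09 alone, and the next elite library, NAM18, lay at 4.60. All 4 of these PI libraries thus lay above every elite library except NAM09. NAM42, NAM46 and NAM50 had LHY2b between 126.7 and 151.8 FPKM, and the other PI libraries between 150.6 and 203 FPKM. Without these 3 libraries limma called 496 of 28385 genes tested, and leaving out NAM42 alone left 3301 of 28374. Of the 18 listed genes called below, all lost their call in limma without these 3 libraries and kept their sign, in a fit with 4 PI libraries.

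**Figure D2:**
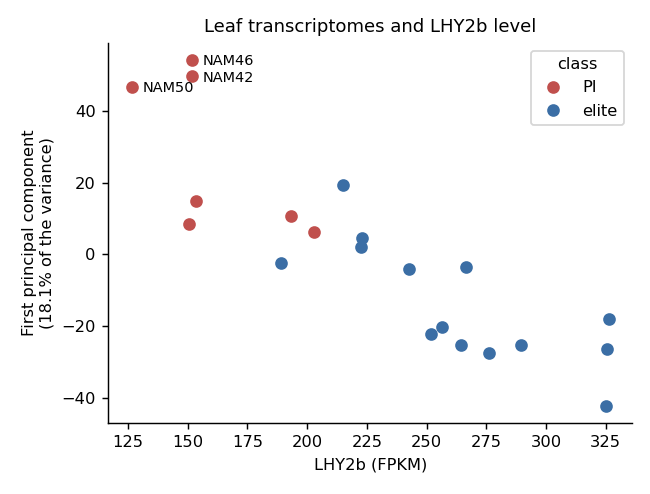
First principal component of log2(FPKM + 1) over the 28385 genes tested, against LHY2b level in FPKM, 1 point per kept library, with PI and elite libraries in different colours. NAM42, NAM46 and NAM50 stand above 40 on the component, and the other PI libraries lie above every elite library except NAM09.

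Of the 99 genes on lists of known loci, 59 besides LHY2b passed the filter on low levels, and 18 of these, 30.5%, were called, 7 higher and 11 lower in PI libraries. The share stands beside the 17.6% over all genes. The 18 include LHY1a, LHY1b and LHY2a, which are not independent of the rule that kept the libraries. They also include FT5a, which passed the filter only through the elite libraries. The share is therefore a description. The lists were drawn up with earlier results of these data known. With LHY2b as a covariate 0 of the 59 were called in limma, 12 of them at an unadjusted p under 0.05, and 6 of the 18 had the opposite sign.

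FT5a (Glyma.16G044100), which encodes a florigen, showed the largest fall on the flowering list. It ranged from 0.112 to 1.35 FPKM with a median of 0.499 in PI libraries, and from 0.331 to 5.435 FPKM with a median of 2.45 in elite libraries. All 7 PI libraries lay under the elite median, and the lowest were NAM46, NAM42 and NAM50 at 0.112, 0.140 and 0.227 FPKM. The elite libraries NAM14, NAM09, NAM04 and NAM18, at 0.331, 0.357, 1.08 and 1.19 FPKM, lay inside the PI range. FT5a passed the filter on low levels only through the elite libraries, with means of 0.510 FPKM in PI and 2.95 FPKM in elite libraries, so its call is a description. The log2 fold change was -1.23 (SE 0.309, limma adjusted p = 0.0104). It became -0.98 without NAM42, NAM46 and NAM50 (adjusted p = 0.182) and -0.29 with LHY2b as a covariate (adjusted p = 0.815). The PI library NAM48, left out by the limit, had 1.73 FPKM.

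FT2a (Glyma.16G150700), the other florigen gene, did not pass, at 1.92 to 8.21 FPKM with a median of 4.51 in PI libraries, against 2.33 to 10.9 FPKM with a median of 6.29 in elite libraries. Its log2 fold change was -0.42, with a 95% interval from -0.97 to 0.12 (limma adjusted p = 0.274). With LHY2b as a covariate FT2a turned to 0.315 (limma adjusted p = 0.755). The repressors upstream were close to the limit of measurement. E1 (Glyma.06G207800) had medians of 0.154 FPKM in PI and 0.211 FPKM in elite libraries, and its relatives E1La and E1Lb medians of 0.248 and 0.140 FPKM in PI libraries, against 0.292 and 0.0891 FPKM in elite libraries. None of these 3 reached the filter. Nor did FT4 and FT1a, FT family members known to delay flowering, whose PI medians were both listed at 0.

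The CONSTANS-like genes COL1a and COL1b, relatives of the Arabidopsis gene that relays day length to FT, fell together. COL1a (Glyma.08G255200) ranged from 68.4 to 94.3 FPKM with a median of 80.6 in PI libraries, and from 85.5 to 165 FPKM with a median of 121 in elite libraries. Only the elite libraries NAM22 and NAM09, at 85.5 and 91.3 FPKM, reached into the PI range. Its log2 fold change was -0.58 (SE 0.108, limma adjusted p = 0.0018). COL1b (Glyma.18G278100) ranged from 116.5 to 171 FPKM in PI libraries and from 142 to 243 FPKM in elite libraries, with a log2 fold change of -0.41 (SE 0.099, limma adjusted p = 0.00824). COL1a also had a slope of 0.81 per log2 unit of LHY2b within the elite libraries (SE 0.216, limma adjusted p = 0.0348), a fit that shares those libraries with the comparison. With LHY2b as a covariate the fold changes were -0.06 for COL1a and -0.08 for COL1b, with adjusted p of 0.853 and 0.837, and without NAM42, NAM46 and NAM50 they were -0.50 and -0.30 with adjusted p of 0.0634 and 0.189.

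Dt2 (Glyma.18G273600), a MADS-box gene that acts in ending stem growth, was lower as well. It ranged from 0.876 to 2.39 FPKM with a median of 1.65 in PI libraries, and from 1.42 to 4.94 FPKM with a median of 3.01 in elite libraries, with all PI libraries under the elite median. The log2 fold change was -0.59 (SE 0.143, limma adjusted p = 0.00893), and -0.32 with the covariate (adjusted p = 0.535). Without NAM42, NAM46 and NAM50 it was -0.44 (adjusted p = 0.147). The floral integrators SOC1a and SOC1b did not pass, at log2 fold changes of -0.57 and -0.53 and limma adjusted p of 0.0873 and 0.0682. SOC1b gained a call without the elite library NAM22 (-0.61, adjusted p = 0.0158), and SOC1a without NAM22 (-0.64, adjusted p = 0.038) or without NAM09 (-0.64, adjusted p = 0.0455) and with all classes in the fit (-0.57, adjusted p = 0.0168). Both had steep slopes on LHY2b within elite libraries, 1.51 for SOC1a and 1.69 for SOC1b, with adjusted p of 0.0118 and 0.00612 in limma. With LHY2b as a covariate the signs turned, to 0.44 for SOC1a and 0.39 for SOC1b (limma adjusted p = 0.48 and 0.452).

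In all, 7 of the 18 flowering genes passed the filter, and 0 were higher and 4 lower, at a median log2 fold change of -0.57 against -0.01 over all genes tested, where 8.61% were higher and 8.95% lower. The 4 include FT5a, which passed the filter only through the elite libraries. With the covariate 0 of the 7 were called in limma.

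**Figure D3:**
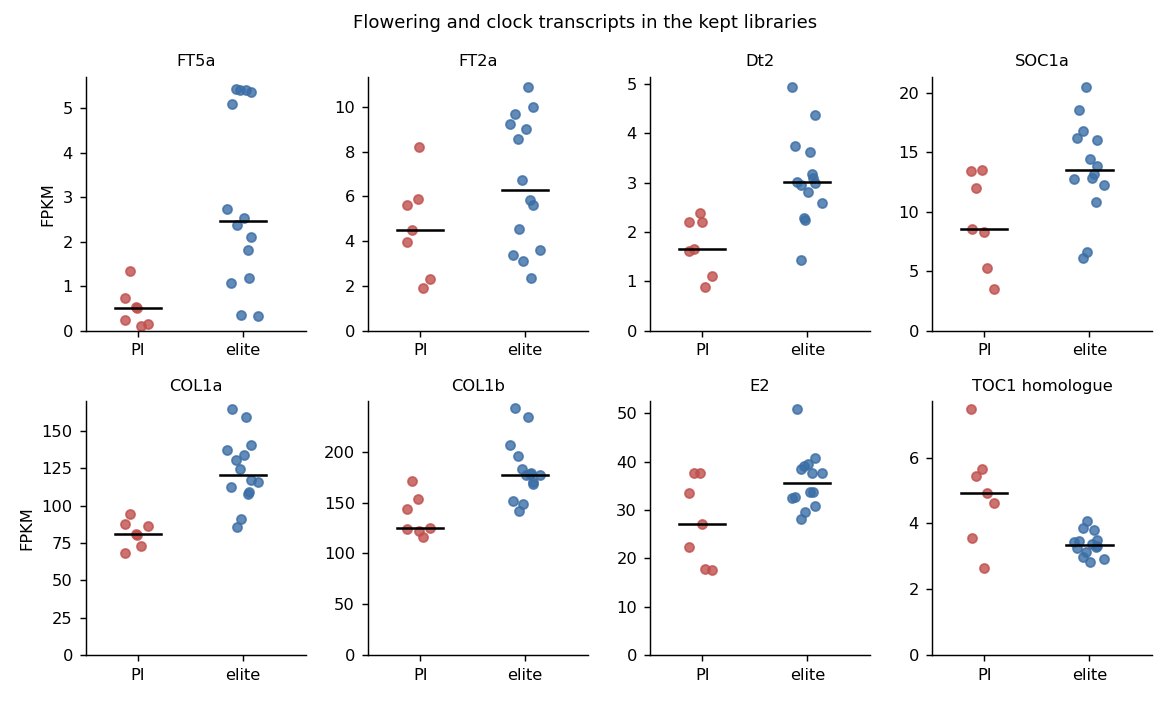
FPKM of flowering and clock genes in each kept PI library (left) and elite library (right), with bars at the medians. COL1a, COL1b, Dt2 and FT5a have PI medians below the elite medians, and the TOC1 homologue has a PI median above it.

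Among clock genes other than LHY, E2 and PRR3b were lower and a TOC1 homologue was higher in PI libraries. E2 (Glyma.10G221500), the GIGANTEA homologue behind a maturity locus, ranged from 17.6 to 37.6 FPKM with a median of 27.2 in PI libraries, and from 28.1 to 50.8 FPKM with a median of 35.65 in elite libraries. NAM42, NAM46 and NAM50 were at 17.65, 17.7 and 22.4 FPKM, while NAM40, NAM41 and NAM54 stood at 33.6 to 37.6 FPKM within the elite range. The log2 fold change of E2 was -0.42 (SE 0.139, limma adjusted p = 0.0422), and -0.08 without those 3 libraries (adjusted p = 0.764). This call was lost on leaving out any of 12 single libraries, the value nearest to 0 being -0.32 without NAM42 (adjusted p = 0.119), and in a rank-sum test (adjusted p = 0.115).

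PRR3b (Glyma.12G073900), a pseudo-response regulator known as a flowering locus, had medians of 43.9 FPKM in PI and 59.2 FPKM in elite libraries, with ranges of 37.7 to 57.98 and 39.8 to 101 FPKM. Its log2 fold change was -0.42 (SE 0.133, limma adjusted p = 0.0351), and 0.34 with the covariate (adjusted p = 0.171). Its slope on LHY2b within elite libraries was 1.28 (SE 0.169, limma adjusted p = 0.00209). The call was lost without any 1 of NAM42, NAM46, NAM50, NAM64, NAM04, NAM15 and NAM23, at values between -0.41 and -0.37, and without NAM42, NAM46 and NAM50 together it was -0.31 (limma adjusted p = 0.335).

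The TOC1 homologue Glyma.04G166300, in Arabidopsis an evening repressor of LHY, ranged from 2.63 to 7.46 FPKM with a median of 4.93 in PI libraries, and from 2.83 to 4.08 FPKM with a median of 3.34 in elite libraries. In 5 of 7 PI libraries it exceeded every elite library, while NAM64 was at the bottom with 2.63 FPKM. The log2 fold change was 0.39 (SE 0.108, limma adjusted p = 0.0175) and 0.62 with the covariate (adjusted p = 0.0887), and a rank-sum test gave an adjusted p of 0.0755. Without NAM42, NAM46 and NAM50 it was 0.47 (limma adjusted p = 0.0753). Without the limit on LHY2b it was 0.047 (limma adjusted p = 0.963), and the call was also lost with all classes in the fit (limma adjusted p = 0.0529). Its slope on LHY2b within elite libraries was -0.07 (adjusted p = 0.819 in limma).

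The tested genes of the evening complex did not differ beyond the spread, nor did the GIGANTEA homologue Glyma.20G170000. J (Glyma.04G050200), the ELF3 homologue, had medians of 6.14 FPKM in PI and 5.39 FPKM in elite libraries, and LUX2 medians of 3.06 and 3.14 FPKM. Glyma.20G170000 had medians of 25.1 and 23.6 FPKM. Their log2 fold changes were 0.10, -0.17 and 0.14, with 95% intervals from -0.12 to 0.31, -0.48 to 0.14 and -0.10 to 0.37. With LHY2b as a covariate they were -0.03, 0.16 and 0.59, with limma adjusted p of 0.954, 0.791 and 0.0704. LUX1 stayed under the filter and was not tested, at medians of 0.207 FPKM in PI and 0.136 FPKM in elite libraries. In 6 of 7 PI libraries LUX1 lay above the elite median. In the left-out elite libraries Parent and NAM10, J stood at 47.5 and 53.6 FPKM and LUX2 at 45.5 and 55.9 FPKM, far above all kept libraries. Of the 9 clock genes tested besides LHY2b, 1 was higher and 5 were lower in PI libraries, beside 8.61% higher and 8.95% lower over all genes tested. Of the 5, 3 were the other LHY copies, which are not independent of the rule.

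Photoreceptor genes differed little in size. PHYA1 (Glyma.10G141400), a phytochrome A gene, ranged from 16.8 to 21.4 FPKM in PI libraries and from 13.4 to 17.4 FPKM in elite libraries, and 5 of 7 PI libraries lay above every elite library. Its log2 fold change was 0.24 (SE 0.058, limma adjusted p = 0.00808), and 0.08 with the covariate (adjusted p = 0.699). The blue light receptor gene CRY1a (Glyma.04G101500) ranged from 20.1 to 25.4 FPKM in PI libraries and from 23.9 to 32.04 FPKM in elite libraries, and 5 of 7 PI libraries lay below every elite library. Its log2 fold change was -0.26 (SE 0.062, limma adjusted p = 0.00899), and -0.16 with the covariate (adjusted p = 0.462). Without NAM42, NAM46 and NAM50 the values were 0.20 for PHYA1 and -0.24 for CRY1a, with adjusted p of 0.12 and 0.122. The maturity loci E3 and E4 did not pass, at 0.08 and 0.10, and the phytochrome B genes PHYB1 and PHYB2 stood at 0.01 each with 95% intervals from -0.08 to 0.09 and from -0.09 to 0.11. CRY2a also did not pass at -0.04, which made 1 higher and 1 lower of 7 photoreceptor genes, beside 17.6% called over all genes tested.

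**Figure D4:**
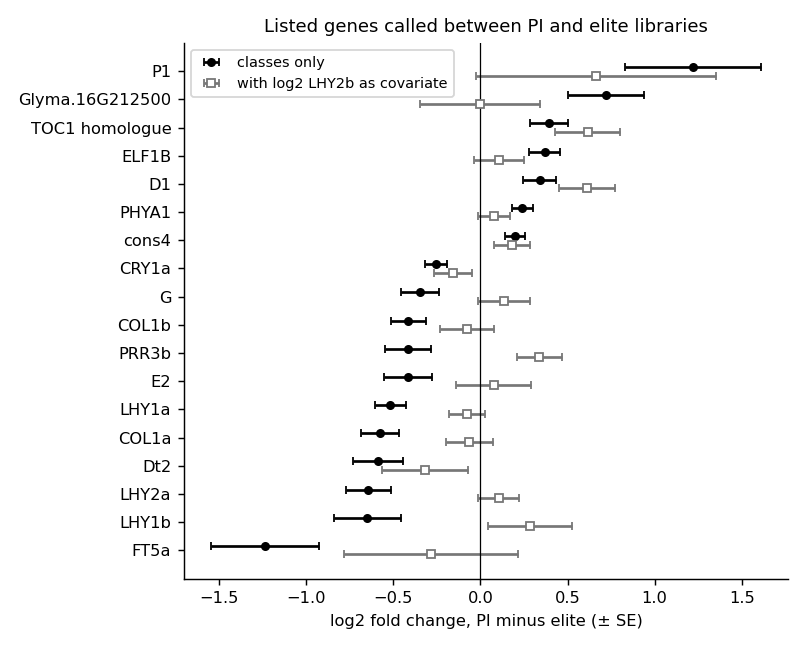
Log2 fold change of PI over elite libraries, with standard errors, for the 18 listed genes called at an adjusted p under 0.05. Filled points are the comparison of the classes, open squares the same with log2 LHY2b as a covariate; FT5a, COL1a, COL1b and the LHY genes lie nearer to 0 with the covariate, and P1, the TOC1 homologue and D1 stay above 0.

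P1 (Glyma.09G278000), a locus for pubescence, showed the largest called rise on the lists. It ranged from 13.8 to 43.96 FPKM with a median of 16.4 in PI libraries, and from 2.04 to 28.2 FPKM with a median of 10.05 in elite libraries. Every PI library lay above the elite median, and NAM50 and NAM40 at 43.96 and 37.9 FPKM exceeded all elite libraries. The log2 fold change was 1.22 (SE 0.389, limma adjusted p = 0.0344). The call was lost without NAM50 (1.05, adjusted p = 0.0877), NAM40 (1.09, adjusted p = 0.0696), NAM42 (1.21, adjusted p = 0.0626) or NAM23 (1.13, adjusted p = 0.0508), as well as by ranks (rank-sum adjusted p = 0.0557). The left-out PI library NAM48 had 8.04 FPKM, below every kept PI library. With the covariate the value was 0.66 (adjusted p = 0.66), and without NAM42, NAM46 and NAM50 1.07 (limma adjusted p = 0.241).

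The stay-green loci went opposite ways. G (Glyma.01G198500), which acts in seed coat greenness and dormancy, had medians of 231 FPKM in PI and 296 FPKM in elite libraries, a log2 fold change of -0.35 (SE 0.11, limma adjusted p = 0.0336). D1 (Glyma.01G214600), which acts in chlorophyll breakdown, had medians of 6.67 FPKM in PI and 4.78 FPKM in elite libraries, a log2 fold change of 0.34 (SE 0.097, limma adjusted p = 0.0207). Its homologue D2 did not pass at -0.30. With the covariate G turned to 0.14 (adjusted p = 0.682) and D1 stood at 0.61 (adjusted p = 0.0562). The call of G was lost without NAM42 (-0.30, adjusted p = 0.0872), NAM46 (-0.34, adjusted p = 0.0607), NAM50 (-0.32, adjusted p = 0.0743) or NAM54 (-0.31, adjusted p = 0.0672), and that of D1 without NAM46 or NAM64 (both 0.29, adjusted p = 0.0589 and 0.0512). D1 also lost its call by ranks (rank-sum adjusted p = 0.0755) and with all classes in the fit (limma adjusted p = 0.119). Without NAM42, NAM46 and NAM50 G stood at -0.24 (limma adjusted p = 0.353) and D1 at 0.40 (adjusted p = 0.06). Without the limit on LHY2b G stood at -0.146 (limma adjusted p = 0.762) and D1 at 0.061 (adjusted p = 0.937). The flavonoid 3'-hydroxylase gene T did not pass at -0.03. W1, W4, R and Ln, which act in flower colour, seed coat colour and leaflet shape, stayed under the filter, so that 2 of 5 tested pigment and shape genes were higher and 1 lower, beside 8.61% and 8.95% of all genes tested.

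At rhg1, a repeated segment for resistance to the soybean cyst nematode whose copy number is known to vary, no class difference passed in the main comparison. High levels appeared in 5 elite libraries and in no kept PI library, and a difference in spread was not tested. The alpha-SNAP gene (Glyma.18G022500) stood between 21.8 and 28.8 FPKM in all 7 PI libraries. In elite libraries it stood between 18.9 and 30.5 FPKM in 9 and between 214 and 273 FPKM in 5, namely NAM03, NAM05, NAM12, NAM13 and NAM15. The same 5 libraries had 60.7 to 89.9 FPKM of the transporter gene (Glyma.18G022400) and 89.8 to 179 FPKM of the WI12 gene (Glyma.18G022700). The other 9 elite libraries had 3.81 to 5.33 and 6.84 to 12.6 FPKM of these genes, and the PI libraries 3.23 to 5.63 and 5.60 to 15.98 FPKM. The log2 fold changes were -1.14, -1.30 and -1.22, with limma adjusted p of 0.184, 0.185 and 0.166. The transporter gene passed where all 4 classes of the series shared 1 estimate of the spread (adjusted p = 0.0393).

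The other loci of nematode resistance also did not pass. Rhg4 (Glyma.08G108900), a serine hydroxymethyltransferase gene, had medians of 126 FPKM in PI and 115 FPKM in elite libraries, and the NSF gene Glyma.07G195900, whose product works with alpha-SNAP in vesicle fusion, 6.85 and 5.25 FPKM. SNAP11 had medians of 12.8 and 12.2 FPKM. In all 0 of 6 genes of this list were called in limma, 0 at an unadjusted p under 0.05.

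Several lists held no call in limma. These were flavonoid synthesis with 6 genes tested, leaf nitrogen storage with 2, fatty acid desaturation with 3, domestication with 1 and the leaf markers with 6; at an unadjusted p under 0.05 they held 0, 0, 1, 0 and 1. The Rubisco activase gene Glyma.02G249600 gained a call after quantile normalization (0.23, limma adjusted p = 0.00879). IFS1 (Glyma.07G202300), which encodes an isoflavone synthase, had medians of 28.7 FPKM in PI and 22.1 FPKM in elite libraries and a log2 fold change of 0.81 with a 95% interval from -0.20 to 1.81. VspA (Glyma.07G014500), a vegetative storage protein gene, had medians of 1498 FPKM in PI and 1211 FPKM in elite libraries at a log2 fold change of 0.37, and VspB medians of 220 and 188 FPKM at 0.15. The linoleate desaturase gene FAD3C was at 0.31 with a limma adjusted p of 0.0594, and passed after quantile normalization (0.34, adjusted p = 0.04), with a filter at 5 FPKM (adjusted p = 0.0498), by ranks (rank-sum adjusted p = 0.0402), and without NAM14 (0.33, adjusted p = 0.0399) or NAM17 (0.34, adjusted p = 0.0325). FAD3C did not pass in the other fits, at 0.29 with LHY2b as a covariate (limma adjusted p = 0.459).

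Genes often used to normalise soybean expression were not all level between the classes. ELF1B (Glyma.02G276600), an elongation factor gene, ranged from 16.7 to 26.2 FPKM in PI libraries and from 12.97 to 20.04 FPKM in elite libraries, a log2 fold change of 0.37 (SE 0.089, limma adjusted p = 0.00867). With LHY2b as a covariate ELF1B stood at 0.11 (limma adjusted p = 0.744), without NAM42, NAM46 and NAM50 at 0.22 (adjusted p = 0.211), and without the limit on LHY2b at 0.25 (adjusted p = 0.55). The transporter gene known as cons4 (Glyma.12G020500) had medians of 28.9 FPKM in PI and 24.97 FPKM in elite libraries, at 0.20 (SE 0.058, limma adjusted p = 0.0232), and lost its call without NAM42 (0.18, adjusted p = 0.0595), with the covariate (0.18, adjusted p = 0.359), with all classes in the fit (0.20, adjusted p = 0.0983) and without NAM42, NAM46 and NAM50 (0.19, adjusted p = 0.178). The actin gene ACT11 and the F-box gene SKIP16 did not pass, at 0.06 and 0.07 with 95% intervals from -0.05 to 0.17 and from -0.04 to 0.17. On the nodulation list NARK, a receptor kinase gene that limits nodule number, stood at 0.01, CLV1A at -0.11, and the ID Glyma.16G212500, whose locus name is uncertain, was higher at 0.72 (SE 0.219, limma adjusted p = 0.0273). That call was lost without NAM50 (0.58, adjusted p = 0.0787) or NAM46 (0.72, adjusted p = 0.0517), and without NAM42, NAM46 and NAM50 the value was 0.52 (limma adjusted p = 0.283).

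The 2 largest called rises and the 2 largest called falls lay in genes with separate high and low levels, and what they encode is not given in the table. Glyma.09G186200 had at least 53.8 FPKM in 6 of 7 PI libraries and 0.0799 FPKM in NAM42. In elite libraries it had at least 53.8 FPKM in 3 of 14, NAM15, NAM17 and NAM18, and at most 0.854 FPKM in the other 11. Its neighbour in ID order, Glyma.09G186300, had at least 17.9 FPKM in the same 6 PI libraries and at least 15.1 FPKM in the same 3 elite libraries. The log2 fold changes were 3.70 (SE 1.02) and 2.86 (SE 0.745), with limma adjusted p of 0.0172 and 0.0128. In the rank-sum test Glyma.09G186200 had an adjusted p of 0.10. With LHY2b as a covariate the fold changes were 2.655 and 2.146 (limma adjusted p = 0.468 and 0.414). Without the limit on LHY2b they were 3.62 and 2.71 (limma adjusted p = 0.0634 and 0.0545). In the shared LHY2b range they were 4.35 and 3.35 (limma adjusted p = 0.349 and 0.338). LG libraries, from breeding lines of diverse ancestry, were high in 6 of 13 for both genes at LHY2b of 60 FPKM or more.

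The falls were of the same kind. Glyma.16G162600 stood between 0.369 and 2.46 FPKM in all 7 PI libraries. In elite libraries it stood between 79.5 and 3155 FPKM in 8 of 14 and at most at 2.60 FPKM in the other 6. The left-out PI library NAM48 had 1618 FPKM, so the low level did not hold over all 8 PI libraries. The log2 fold change was -5.51 (SE 1.89, limma adjusted p = 0.0475), and the call was lost without any of 15 single libraries, at values between -5.64 and -5.11, as well as by ranks (rank-sum adjusted p = 0.288). The fold change was -7.63 with LHY2b as a covariate (limma adjusted p = 0.234) and -3.94 without the limit on LHY2b (adjusted p = 0.342). Without NAM42, NAM46 and NAM50 it was -5.37 (limma adjusted p = 0.247), and in the shared LHY2b range -8.58 (adjusted p = 0.233). Glyma.18G166600 was at most at 0.0171 FPKM in PI libraries, also listed at 0 in NAM48, and at least at 8.51 FPKM in 9 of 14 elite libraries. It passed the filter on low levels only through the elite libraries, with means of 0.00446 FPKM in PI and 6.82 FPKM in elite libraries, so its call is a description. Its log2 fold change was -2.26 (SE 0.63, limma adjusted p = 0.0183), and a rank-sum test gave an adjusted p of 0.0828. With LHY2b as a covariate it was -0.39 (limma adjusted p = 0.885), without NAM42, NAM46 and NAM50 -2.26 (adjusted p = 0.147), and without the limit on LHY2b -2.27 (adjusted p = 0.0519). In the shared LHY2b range it was -1.77 (limma adjusted p = 0.577).

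A Rubisco small subunit gene varied in the same way without a passed test. Glyma.19G046800 had 3885 FPKM or more in 4 of 7 PI libraries, NAM41, NAM42, NAM46 and NAM50, and was listed at 0 in the other 3. In elite libraries it had 3714 FPKM in NAM09, 3491 FPKM in NAM15 and was listed at 0 in 12. A listed 0 can be a failed estimate, and the gene can share reads with its relative Glyma.13G046200, which stood between 12570 and 19220 FPKM in PI and between 13390 and 25060 FPKM in elite libraries. The limma adjusted p was 0.0989, and 0.0408 without NAM09 and 0.0478 without NAM15.

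**Figure D5:**
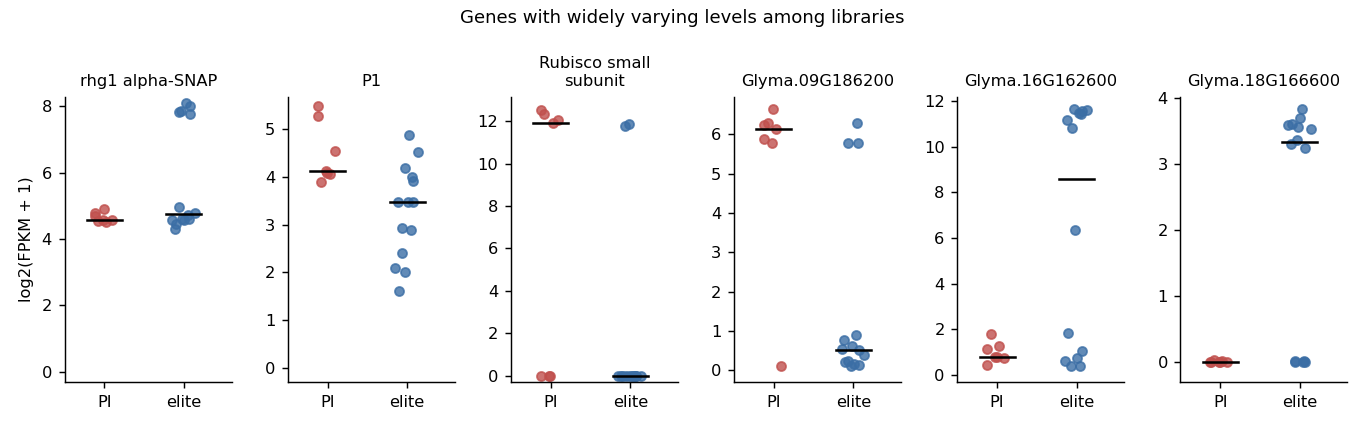
Levels of 6 genes in each kept PI library (left) and elite library (right), as log2(FPKM + 1), with bars at the medians and a scale of its own in each panel. The rhg1 alpha-SNAP gene, the Rubisco small subunit gene Glyma.19G046800 and the IDs of the largest changes fall into separate high and low levels, and P1 varies without a gap.

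LG libraries lay between the classes at several of these genes. Over the 13 LG libraries at 60 FPKM or more of LHY2b, the median was 219 FPKM for LHY2b, 388 FPKM for LHY1a, 106 FPKM for COL1a, 1.66 FPKM for FT5a and 25.5 FPKM for CRY1a, each between the PI and the elite median. E2 at 38.04 FPKM and FT2a at 8.57 FPKM had LG medians above both, and P1 at 8.19 FPKM below both. These are levels with no test.

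Neighbours in ID order gave a last description. Of genes called higher in PI libraries, 9.34% had a next ID also called higher, beside 8.61% of all genes tested. Of genes called lower, 10.6% had a next ID also called lower, beside 8.95%.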

How the data were processed

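The deposited table holds FPKM, computed by the authors, for 56044 gene IDs in 102 libraries. Per the submitters' processing notes, Trimmomatic 0.32, STAR 2.4.1c and Cufflinks 2.2.1 were used. The build is given only by a suffix on the gene IDs. The kit was stranded, per the labels' protocols, but whether quantification used strand is not given in the sources used here, so overlapping or near-identical genes cannot be separated. Public family numbers placed columns 40 to 64 in PI, columns 24 to 39 in LG, and columns 2 to 23 and Parent in elite. The elite and milestone labels were likewise assigned from general knowledge of the soyNAM parents. Libraries with LHY2b at 60 FPKM or more were fitted alone with limma 3.58.1 (R 4.3.3), with a mean trend, 2-sided, on log2(FPKM + 1) over genes whose mean reached 1 FPKM, and Benjamini-Hochberg adjustment over all genes tested at 0.05. The fits were run on simulated data with independent noise in each gene and no link to LHY2b. These libraries differ from that setting, so the run cannot vouch for the calls. Library measures were compared by exact permutation over 116280 divisions. Named genes were all listed genes and, by rule, the 12 largest rises and 12 largest falls and the 5 widest gaps each way, of which 2 each are printed since 0 IDs matched the reference table. Loci were named from general knowledge of published work. Members and lists were chosen with earlier results of these data known. Alternatives were pseudocounts, filters, scalings, moderation, a rank-sum test, the limit on LHY2b, LHY2b as a covariate, other classes in the fit, and each library left out. 2 more were chosen after seeing the data, the shared LHY2b range and the fit without NAM42, NAM46 and NAM50.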

Additional observations from a re-analysis of the deposited data

Results flagged for a closer look

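Of 64 named genes, 5 had a PI library far from the other 6, where chance marks about 1 in 20. NAM42 was far below the others for Glyma.09G186200 (0.0799 FPKM, the next 53.8 FPKM), for Glyma.09G186300 (0.0131 FPKM, the next 17.9 FPKM) and for IFS1 (6.50 FPKM, the next 23.2 FPKM). NAM50 was far below for the rhg1 transporter gene (3.23 FPKM, the next 4.60 FPKM) and far above for Glyma.16G212500 (30.3 FPKM, the next 16.8 FPKM).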

How the results depend on the processing

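The count of 4986 called genes stayed within 1.5 times under both pseudocounts, both scalings, robust moderation, rank-sum testing and LG libraries in the fit. Both filters also stayed within it, but on other sets of genes, with 4153 of 50935 called unfiltered and 3633 of 15876 at 5 FPKM. A limit of 100 FPKM kept the same 21 libraries, since no PI or elite library lay between 49.7 and 126.7 FPKM, so it tests nothing. The count fell to 239 of 29202 genes tested without the limit on LHY2b. Of 28385 tested it fell to 390 with LHY2b as a covariate and 2576 with all classes in the fit. It was 3 in the shared LHY2b range and 496 without NAM42, NAM46 and NAM50. With 1 library left out the count ranged from 3301 to 5626. The last fits hold fewer samples; otherwise the cause was not tested. Signs turned without the limit for COL1a (0.037), COL1b (0.36), LHY1a (0.35), LHY1b (0.13) and LHY2a (0.16). They turned with the covariate for LHY1b (0.28), LHY2a (0.11), E2 (0.076), PRR3b (0.34), G (0.14) and Glyma.16G212500 (-0.001), and in the shared range for FT5a (0.072), LHY1b (0.17), LHY2a (0.053), E2 (0.15), PRR3b (0.20) and G (0.086). No paired analysis was possible because each accession has 1 library and the columns carry no replicate number. Depth is unknown.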
